A study of Mus musculus with 48 samples.

Results

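The genes described here are 10 genes that lie around the aromatase gene, Cyp19a1, on mouse chromosome 9: Atm, Ppp2r1b, Il18, Cryab, Dnaja4, Dlat, Mcam, Tmprss13, Sidt2 and 1110032A03Rik. They were chosen by symbol, from among 14182 genes measured on either of 2 array types, because earlier results of these data showed them to differ between aromatase knockout and wild type glands. The knockout differences below are therefore descriptions without a test, and only the sex differences, which the choice did not use, are tested. On Affymetrix arrays the 10 genes had 16 probe sets, and on CodeLink arrays 8 of them had 9 spots (Ppp2r1b and Tmprss13 had none). Each probe set or spot is treated on its own, since probes of 1 gene did not always move together.

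Aromatase turns androgens into estrogens, and the knockout mice are homozygous for a disrupted aromatase gene. The groups were lacrimal glands of knockout females, lacrimal glands of wild type females, lacrimal glands of knockout males, lacrimal glands of wild type males, and the same 4 groups of meibomian glands. Wild type mice were matched for age, and each of the 8 groups had 3 pools of the glands of 5 to 8 mice. Each pool's RNA went onto 1 Affymetrix and 1 CodeLink array, so the CodeLink values are a second measurement of the same RNA and add no mice. The labels give no strain, no age in weeks and no breeding history. A difference that goes with the disrupted allele and one that goes with neighbouring DNA inherited along with it cannot be told apart in this design, because all knockout pools are homozygous for the allele.

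Lacrimal glands make the watery part of tears, and meibomian glands, in the eyelids, make the lipid that covers it. Genes that sit close to a targeted gene tend to be inherited together with it, whatever their function. The 10 genes have unrelated roles. Atm encodes the kinase that signals DNA double-strand breaks, Ppp2r1b a scaffold subunit of protein phosphatase 2A, and Il18 an inflammatory cytokine that caspase-1 matures. Cryab (a small heat shock protein) and Dnaja4 (a partner of heat shock protein 70) are chaperones, and Dlat encodes the acetyltransferase of the pyruvate dehydrogenase complex. Mcam is an adhesion molecule of endothelial and mural cells, Tmprss13 a membrane serine protease and Sidt2 a lysosomal membrane protein. No role is given here for 1110032A03Rik.

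In the order of protein-coding genes in RefSeq (assembly GRCm38.p6, used for names and order only), 9 of the genes lie on the side of Cyp19a1 toward the chromosome start. Atm is the 9th gene from Cyp19a1, Ppp2r1b the 27th, 1110032A03Rik the 30th, Cryab the 32nd, Dlat the 35th, Il18 the 41st, Sidt2 the 75th, Tmprss13 the 84th and Mcam the 126th. Dnaja4, the 7th gene toward the chromosome end, is the nearest of all. No probe with the symbol Cyp19a1 was on either array type, so the knockout could not be checked on the targeted gene itself.

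The promoters of 4 of these genes are shown because, of the 8 genes with a window, they had the widest knockout differences in female lacrimal glands, Il18 upward and Atm, Dnaja4 and Ppp2r1b downward. The windows are from RefSeq (GRCm38.p6) and run from 250 bases before to 50 bases after the annotated start, 5′ to 3′ on the gene's strand. Capitals mark the letters of an estrogen receptor half-site (GGTCA or, on the other strand, TGACC) or of an androgen receptor half-site (TGTTCT or AGAACA).
Il18 promoter, chr9:50554450-50554749, plus strand: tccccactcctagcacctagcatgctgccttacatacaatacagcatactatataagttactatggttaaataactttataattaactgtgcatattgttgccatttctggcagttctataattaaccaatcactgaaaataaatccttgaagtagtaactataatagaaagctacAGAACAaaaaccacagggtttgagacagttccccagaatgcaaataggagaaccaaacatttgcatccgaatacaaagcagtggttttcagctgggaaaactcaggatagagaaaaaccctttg
Atm promoter, chr9:53536622-53536921, minus strand: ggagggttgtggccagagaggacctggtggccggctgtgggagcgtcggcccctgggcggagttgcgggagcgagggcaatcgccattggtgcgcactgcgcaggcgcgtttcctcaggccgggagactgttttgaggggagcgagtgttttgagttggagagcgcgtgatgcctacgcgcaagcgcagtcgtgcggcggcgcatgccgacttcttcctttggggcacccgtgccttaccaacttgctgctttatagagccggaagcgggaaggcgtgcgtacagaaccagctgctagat
Dnaja4 promoter, chr9:54699033-54699332, plus strand: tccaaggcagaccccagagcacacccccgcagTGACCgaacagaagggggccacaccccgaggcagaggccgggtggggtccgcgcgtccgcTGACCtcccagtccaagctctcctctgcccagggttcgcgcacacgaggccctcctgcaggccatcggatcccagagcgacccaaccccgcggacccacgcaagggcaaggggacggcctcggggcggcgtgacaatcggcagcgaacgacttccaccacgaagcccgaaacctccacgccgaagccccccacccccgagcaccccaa
Ppp2r1b promoter, chr9:50856674-50856973, plus strand: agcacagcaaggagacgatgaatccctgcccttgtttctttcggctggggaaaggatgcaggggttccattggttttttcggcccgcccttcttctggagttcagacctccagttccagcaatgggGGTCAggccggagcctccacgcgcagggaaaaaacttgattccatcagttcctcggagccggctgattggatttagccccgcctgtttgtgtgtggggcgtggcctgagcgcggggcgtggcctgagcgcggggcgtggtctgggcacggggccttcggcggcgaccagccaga

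The Il18 window holds 1 androgen receptor half-site, the Dnaja4 window shown, the first of its 2, holds 2 estrogen receptor half-sites, the Ppp2r1b window 1, and the Atm window none of either kind. The second Dnaja4 window, chr9:54699309-54699608, holds no half-site of either kind. Of all 32851 promoter windows, 40.5% hold an estrogen receptor half-site and 19.0% an androgen receptor half-site, so such short matches are common and are given as a description only. None of the 9 windows found for 8 of the genes holds the full estrogen response element, both half-sites facing each other across 3 bases, which 0.07% of all windows hold.

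Values below are log2 signals relative to the median of their array, given for pools 1, 2 and 3 in that order. Differences are on the same log2 scale, knockout minus wild type, with the standard error (SE) of a limma fit of 4 groups of 3 pools per gland. A probe set counts as called where its adjusted p, over all tested probe sets of the gland, is under 5%. Where a group of pools is lower, fewer cells of a type and less RNA per cell cannot be told apart. All values are probe signals, and whether a DNA sequence difference under a probe changed any of them was not tested. Array medians were 12.2 to 13.7 signal units in knockout and 15.6 to 19.7 in wild type female lacrimal pools, and the median log2 difference over all tested probe sets there was -0.13. In meibomian females the same median was -0.11, so small negative values in females are to be read against these shifts.

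In lacrimal glands of females, 13 of the 16 probe sets of these genes were lower in knockout, with a median log2 difference of -0.70, and 15 passed the filter on dim probe sets. Of those 15, 7 were called lower and 1 (Il18) higher, and 3.03% of all 13614 tested probe sets were called in that comparison. In lacrimal males the calls were 3 lower and 1 higher of 15, with 1.07% called among all probe sets. Meibomian females had 5 of 13 called, all lower, with 0.529% called among all, and meibomian males had 0 of 13 by limma, the one tool run, with 0.022% called among all. Because the genes were chosen on these comparisons, nothing is read from these shares. The pools of the 2 genotypes did not overlap for 13 of the 16 probe sets in lacrimal females (24.8% of all 22690 probe sets did not), 7 in lacrimal males (10.9%), 12 in meibomian females (21.8%) and 11 in meibomian males (13.5%).

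**Figure D1:**
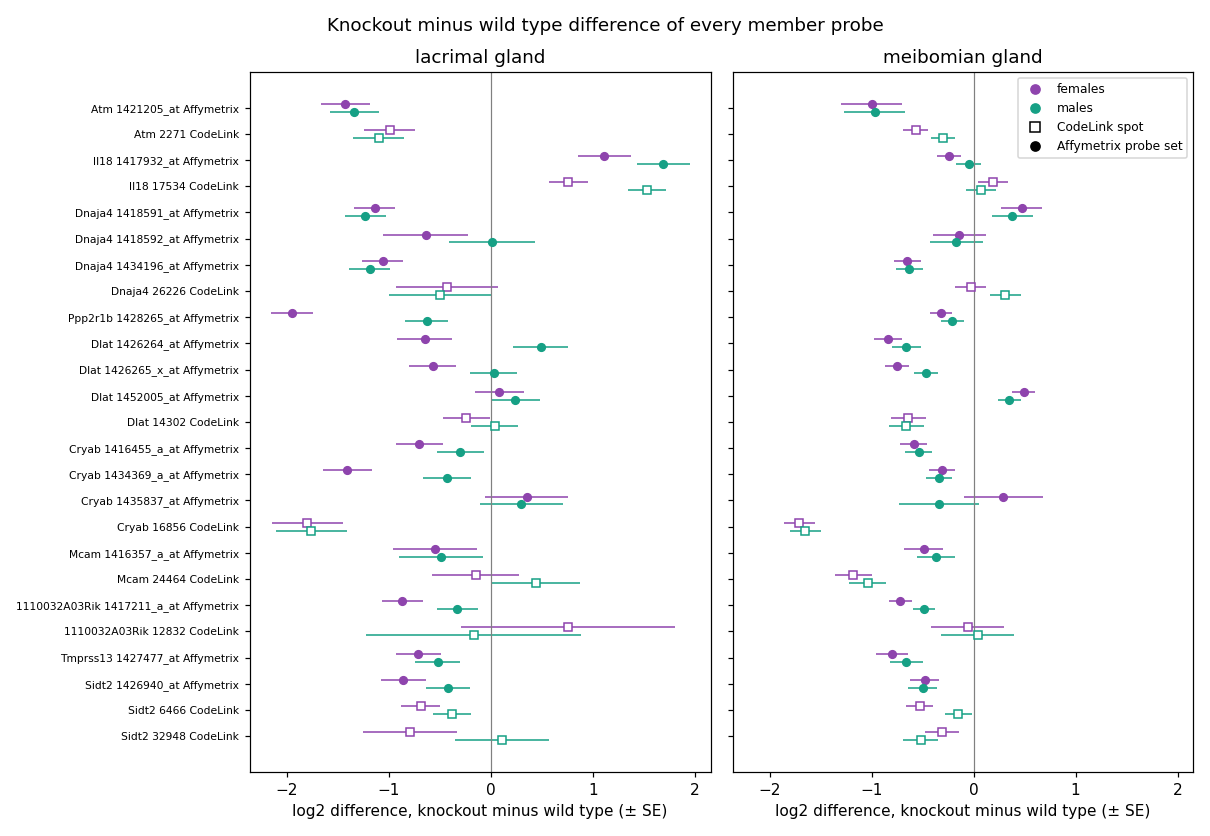
Knockout minus wild type log2 difference (horizontal axis, ± SE) of every Affymetrix probe set (filled circles) and CodeLink spot (open squares) of the 10 genes, in lacrimal (left) and meibomian glands (right), females in purple and males in green. Most points lie left of 0, the Il18 points lie right of 0 in lacrimal glands on both array types, and the Cryab CodeLink spot lies near -1.7 in all 4 comparisons.

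Atm was lower in knockout glands in every comparison. In lacrimal glands of knockout females it was at 0.05, -0.41 and -0.04, against 1.47, 1.26 and 1.16 in wild type females. Knockout males were at -0.01, -0.11 and -0.58, against 1.43, 0.96 and 0.93 in wild type males. In both sexes every knockout pool lay below every wild type pool, with differences of -1.43 ± 0.24 in females and -1.34 ± 0.24 in males. In meibomian glands the same probe set was too dim to pass the filter, at -2.03, -2.63 and -2.40 in knockout females against -1.21, -1.07 and -1.77 in wild type females, and the pools again did not overlap. Deposited signals there were 5.5 to 12.4 in knockout and 14.6 to 21.0 in wild type females. The array medians subtracted were of 56.7 to 64.0 signal units in knockout and 35.5 to 65.4 in wild type females, so the size of these dim differences depends on them. The meibomian differences were -1.0 ± 0.30 in females and -0.97 ± 0.30 in males.

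The CodeLink spot for Atm was also lower in knockout lacrimal glands, by -0.99 ± 0.25 in females and -1.10 ± 0.25 in males. No knockout pool there carried the quality flag G, a letter code that the files do not explain and that the wild type pools carried in part. With knockout values raised to the lowest flagged value of their array, Atm was 1.22-fold lower in knockout females and 1.37-fold lower in knockout males. Wild type values were left as they stood. Only 1 of 3 wild type female and 2 of 3 wild type male pools carried the flag, so these are not strict lower bounds. Among genes of the ATM and p53 response, 13 of 19 listed genes were tested in lacrimal glands, and 1 was called. An unadjusted limma p was under 0.05 for 3 of the 13 in females and 2 in males. Sesn1, a stress-induced p53 target, was at 3.81 in knockout and 2.27 in wild type females, a rise of 1.54 ± 0.24 (limma, adjusted p = 0.000665). The median of the list was -0.02 in females and -0.04 in males, against -0.13 and -0.02 for all probe sets tested, and none of 15 tested was called in meibomian glands, where 5 in females and 1 in males had an unadjusted limma p under 0.05.

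Ppp2r1b showed the largest female difference of the 10 genes and differed between the sexes. In lacrimal glands of knockout females it was at 0.38, 1.04 and 0.66, against 2.73, 2.74 and 2.47 in wild type females. Lacrimal pools of knockout males were at 1.04, 0.95 and 1.37, against 1.98, 1.55 and 1.74 in wild type males. Knockout pools were below wild type pools in both sexes, by -1.95 ± 0.21 in females and -0.63 ± 0.21 in males. The female difference was larger by -1.32 ± 0.30, the only probe set of the 10 genes called for such a sex dependence in lacrimal glands, where 1.04% of all probe sets were. That call was lost in 8 of 12 fits that left out 1 pool and without the filter on dim probes, with values of -1.49 to -1.16 over the 12. Wild type females stood above wild type males, while knockout pools of the 2 sexes overlapped. In meibomian glands the differences were -0.32 ± 0.11 in females, with no overlap of pools, and -0.21 ± 0.11 in males, with overlap. None of the 10 tested other subunits of protein phosphatase 2A was called by limma in any of the 4 comparisons, with an unadjusted p under 0.05 for 4 in lacrimal females, 3 in meibomian females and 0 in males of either gland. Their medians in lacrimal glands were -0.39 in females and 0.09 in males.

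**Figure D2:**
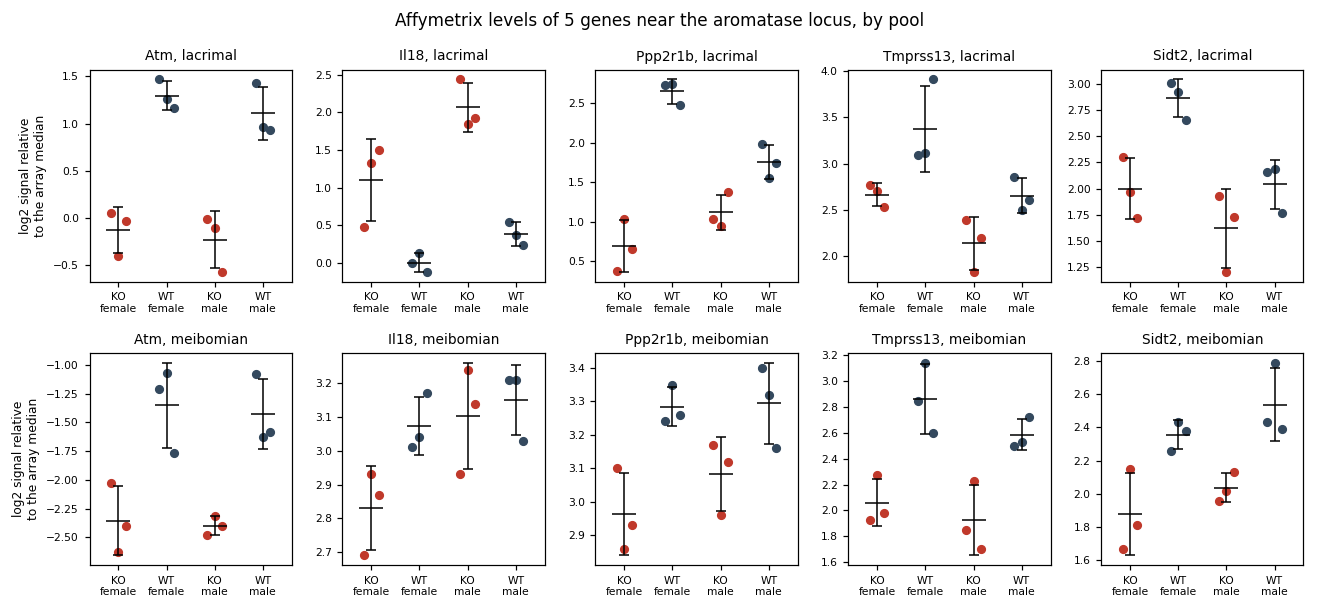
Affymetrix log2 signal relative to the array median (vertical axis) of 5 genes in each pool, lacrimal glands above and meibomian glands below, knockout in red left of wild type in dark blue for each sex; bars are mean and SD of 3 pools, and each panel has its own scale. Atm knockout pools lie below wild type pools in all 4 comparisons, Il18 is higher in knockout in lacrimal glands, and Ppp2r1b is lowest in knockout female lacrimal glands.

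Il18 was the one gene of the 10 that was called higher in knockout, in lacrimal glands of both sexes. Lacrimal pools of knockout females were at 0.48, 1.33 and 1.5, against -0.01, 0.13 and -0.12 in wild type females. Knockout males were at 2.44, 1.84 and 1.92, against 0.54, 0.37 and 0.23 in wild type males. The pools did not overlap in either sex, and the differences were 1.11 ± 0.26 in females and 1.69 ± 0.26 in males. Knockout female pool 1 was the lowest of the knockout pools, and knockout males were the highest group.

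CodeLink gave the same direction in lacrimal glands, 0.76 ± 0.19 in females and 1.53 ± 0.19 in males. No wild type female spot had the flag G, and with those values raised as for Atm the female rise was 1.28-fold. Only 2 of 3 knockout female spots had the flag, so this is not a strict lower bound. In meibomian glands Il18 was bright and nearly level between genotypes. Knockout females were at 2.69, 2.93 and 2.87 on Affymetrix arrays, against 3.01, 3.04 and 3.17 in wild type females, just apart and in the opposite direction (-0.24 ± 0.12). The CodeLink spot did not repeat this, with 0.19 ± 0.15 and overlapping pools, and meibomian males were at -0.05 ± 0.12 on Affymetrix and 0.07 ± 0.15 on CodeLink arrays.

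None of the tested genes of the IL-18 and inflammasome list was called by limma, 5 in lacrimal and 7 in meibomian glands, and 1 (Myd88, in meibomian males) had an unadjusted p under 0.05. In lacrimal glands Casp1, the IL-18-maturing caspase, differed by 0.30 ± 0.31 in females and 0.10 ± 0.31 in males, and the adaptor Pycard by 0.12 ± 0.19 and -0.24 ± 0.19. Markers of macrophages and dendritic cells, which make IL-18, were higher with it in males. Their summed level (log2 scale) was 6.07 to 6.30 in knockout and 5.25 to 5.66 in wild type male lacrimal pools, and 5.30 to 5.67 in knockout against 5.41 to 5.68 in wild type female pools. Of 10 tested markers, Lyz2 (lysozyme) rose by 0.95 ± 0.19 (limma, adjusted p = 0.0106) and Clec7a, a receptor for fungal glucans, by 1.08 ± 0.25 (adjusted p = 0.0424) in males, and none was called in females, where 1 had an unadjusted p under 0.05. The part of these cells in the Il18 difference was not tested.

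The chaperone Cryab was lower in knockout glands, but its size depended on the probe. In lacrimal glands of knockout females, probe set 1434369_a_at was at 3.98, 3.49 and 3.10, against 4.97, 4.82 and 5.00 in wild type females. Its pools did not overlap there (-1.41 ± 0.24), while in males they did (-0.43 ± 0.24). Probe set 1416455_a_at gave -0.70 ± 0.23 in females and -0.30 ± 0.23 in males, and the third probe set, 1435837_at, was too dim for the filter in both glands.

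The CodeLink spot for Cryab showed a wider gap. In meibomian glands it was at 1.66, 1.73 and 1.65 in knockout females, against 3.62, 3.22 and 3.35 in wild type females. In males it was at 2.10, 2.43 and 1.85 in knockout pools, against 3.64, 3.86 and 3.83 in wild type pools. Every knockout pool was more than 1 log2 unit below every wild type pool of its sex, and the differences were -1.71 ± 0.15 and -1.65 ± 0.15. From the same RNA, the 2 brighter Affymetrix probe sets gave -0.59 ± 0.13 and -0.31 ± 0.13 in meibomian females and -0.54 ± 0.13 and -0.34 ± 0.13 in males. In lacrimal glands the spot gave -1.80 ± 0.35 in females and -1.76 ± 0.35 in males. Skeletal muscle, which also makes Cryab, had a summed marker level of 8.50 to 8.61 in knockout and 8.58 to 8.83 in wild type female meibomian pools, and of 8.80 to 9.11 in knockout and 8.87 to 8.96 in wild type male pools. In lacrimal glands none of the 10 muscle markers passed the filter.

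**Figure D3:**
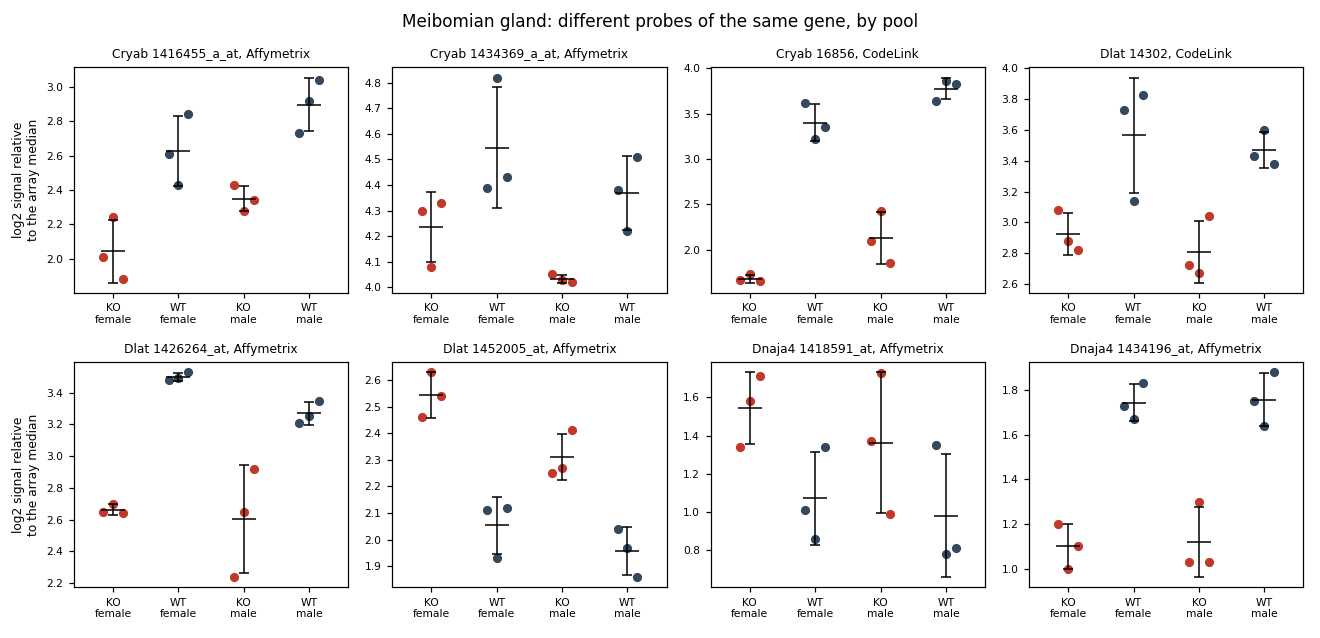
Log2 signal relative to the array median (vertical axis) of different probes of Cryab, Dlat and Dnaja4 in each meibomian pool, knockout in red left of wild type in dark blue for each sex; bars are mean and SD of 3 pools, and each panel has its own scale. The Cryab CodeLink gap of about 1.7 is wider than either Affymetrix gap, and the Dlat probe sets 1426264_at and 1452005_at lie in opposite directions.

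Dnaja4, the nearest of the genes to Cyp19a1, was lower in knockout lacrimal glands of both sexes by both of its brighter probe sets. With 1418591_at, knockout females were at 1.82, 1.86 and 1.31, against 2.80, 2.90 and 2.72 in wild type females. Males were at 1.48, 1.83 and 1.90 in knockout pools, against 3.10, 2.71 and 3.09 in wild type pools. No pools overlapped, and the differences were -1.14 ± 0.20 and -1.23 ± 0.20. Probe set 1434196_at gave -1.06 ± 0.20 in females and -1.19 ± 0.20 in males, and the dimmer 1418592_at gave -0.64 ± 0.42 and 0.01 ± 0.42.

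In meibomian glands the probe sets of Dnaja4 parted. With 1434196_at, knockout females were at 1.20, 1.00 and 1.10, against 1.73, 1.67 and 1.83 in wild type females, a difference of -0.65 ± 0.13. With 1418591_at the same knockout pools were at 1.34, 1.58 and 1.71, against 1.01, 0.86 and 1.34 in wild type females, a difference of 0.47 ± 0.20. The first pair of groups did not overlap, and the second met at 1.34. Males gave -0.63 ± 0.13 and 0.38 ± 0.20 with these probe sets. The CodeLink spot for Dnaja4 was without the flag G on nearly every array and passed the filter in neither gland. Of 15 tested genes of the heat shock and DNAJ list in lacrimal glands, 1 was called. Hspa1b, the inducible heat shock protein 70, was at 2.05 in knockout and 3.85 in wild type females (-1.81 ± 0.41, limma, adjusted p = 0.0177). An unadjusted limma p was under 0.05 for 4 of the 15 in females and 0 in males.

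Dlat was lower in knockout meibomian glands by 2 of its 3 probe sets and by its CodeLink spot. With 1426264_at, knockout females were at 2.65, 2.70 and 2.64, against 3.48, 3.49 and 3.53 in wild type females (-0.84 ± 0.14). Knockout males were at 2.24, 2.65 and 2.92, against 3.21, 3.25 and 3.35 in wild type males (-0.66 ± 0.14). Probe set 1426265_x_at gave -0.75 ± 0.12 and -0.47 ± 0.12, and the CodeLink spot -0.64 ± 0.17 and -0.66 ± 0.17, all without overlap of the pools.

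The third Dlat probe set, 1452005_at, ran the other way in meibomian glands. Knockout females were at 2.46, 2.63 and 2.54, against 2.11, 1.93 and 2.12 in wild type females. Its differences were 0.49 ± 0.11 in females and 0.35 ± 0.11 in males, again without overlap. In lacrimal glands, 1426264_at gave -0.65 ± 0.27 in females and 0.49 ± 0.27 in males, and the CodeLink spot overlapped in both sexes. None of the 8 tested genes of the pyruvate dehydrogenase list was called by limma, with an unadjusted p under 0.05 for 3 in meibomian females and 1 in each of the other 3 comparisons. Which transcripts or exons the probe sets of Dlat, Dnaja4 and Cryab match was not tested, since probe sequences were not used here.

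Mcam was dim in lacrimal glands, where its pools overlapped in both sexes on both array types. In meibomian glands the CodeLink spot was at 0.18, 0.70 and 0.45 in knockout females, against 1.84, 1.23 and 1.81 in wild type females. Knockout males were at 0.58, 0.52 and 0.56, against 1.38, 1.89 and 1.52 in wild type males. Neither sex overlapped (-1.18 ± 0.18 and -1.04 ± 0.18), while the Affymetrix probe set gave -0.49 ± 0.19, with overlap, and -0.37 ± 0.19. The summed level of endothelial and mural markers was 6.67 to 6.87 in knockout and 6.76 to 6.91 in wild type female meibomian pools, and 6.30 to 6.40 in knockout against 6.22 to 6.68 in wild type males. None of 11 tested markers was called there by limma, with an unadjusted p under 0.05 for 0 in females and 2 in males. In lacrimal females the sum was 4.77 to 4.87 in knockout and 5.42 to 5.65 in wild type pools, and Acta2, smooth muscle actin, fell by 0.86 on the log2 scale (SE 0.19, limma, adjusted p = 0.015). It was the 1 marker called of 10 tested there, and an unadjusted limma p was under 0.05 for 4 of the 10. Which cells of the lacrimal gland the Acta2 signal came from was not tested. The part of endothelial and mural cells in the Mcam values was not tested.

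Tmprss13 was lower in knockout by a like amount in both glands. Lacrimal pools of knockout females were at 2.77, 2.70 and 2.53, against 3.09, 3.12 and 3.91 in wild type females. Meibomian pools were at 1.93, 2.27 and 1.98 in knockout females, against 2.84, 3.14 and 2.60 in wild type females. The groups were apart in all 4 comparisons, with -0.71 ± 0.22 and -0.52 ± 0.22 in lacrimal females and males and -0.80 ± 0.16 and -0.66 ± 0.16 in meibomian females and males. Of 7 tested genes of the membrane serine protease list in lacrimal glands, Tmprss4 rose in males, to 1.69 in knockout against 0.83 in wild type (0.86 ± 0.20, limma, adjusted p = 0.0376). An unadjusted limma p was under 0.05 for 4 of the 7 in females and 2 in males.

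Sidt2 was lower in knockout lacrimal glands, at 2.30, 1.97 and 1.72 in females, against 3.01, 2.92 and 2.66 in wild type females (-0.86 ± 0.22, no overlap). Males overlapped (-0.42 ± 0.22). In meibomian glands the differences were -0.48 ± 0.14 and -0.50 ± 0.14, without overlap. Its brighter CodeLink spot gave -0.69 ± 0.19 in lacrimal and -0.53 ± 0.13 in meibomian females, both apart, and -0.38 ± 0.19 and -0.15 ± 0.13 in males, both overlapping.

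1110032A03Rik was lower by its Affymetrix probe set in all 4 comparisons. Lacrimal pools of knockout females were at 3.17, 3.34 and 3.62, against 4.06, 4.03 and 4.65 in wild type females (-0.87 ± 0.20). Meibomian pools were at 2.41, 2.35 and 2.50 in knockout females, against 3.02, 3.33 and 3.08 in wild type females (-0.72 ± 0.11). Males differed by -0.33 ± 0.20 in lacrimal and -0.49 ± 0.11 in meibomian glands, and no pools overlapped in any comparison. The CodeLink spot rested on 1 array: knockout female lacrimal pool 2 was at 6.54 with another flag, CI, against 1.26 and 1.34 in the other knockout pools. With it the difference was 0.76 ± 1.05, and without it -0.98. In meibomian glands that spot differed by -0.06 ± 0.36 in females and 0.04 ± 0.36 in males, with overlap in both sexes. It thus did not repeat the Affymetrix differences there. In lacrimal males it gave -0.17 ± 1.05, also with overlap.

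On CodeLink arrays as a whole, 1 of 7 spots that passed the filter was called in lacrimal females (2.24% of all spots), 2 of 7 in lacrimal males (0.889%), 2 of 6 in meibomian females (0.086%) and 1 of 6 in meibomian males (0.0191%). The called spots were Cryab in all 4 comparisons, Il18 in lacrimal males and Mcam in meibomian females. In meibomian males, 2 of 10464 spots were called, and Cryab was one of them.

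The sex difference, female minus male averaged over the genotypes, was not used in choosing the genes and was tested. Its SE comes from the same spread between pools as the knockout differences, so the test is not wholly independent of the choice. In lacrimal glands, 6 of the 15 Affymetrix probe sets passed 5%, where 17.4% of all probe sets did. Cryab was higher in females, at 3.10 to 5.00 over the 6 female pools and 2.00 to 3.00 over the 6 male pools with 1434369_a_at (1.72 ± 0.17, limma, adjusted p = 6.23e-07). The second probe set gave 1.44 ± 0.16 (adjusted p = 3.18e-06), and with both every female pool lay above every male pool. Tmprss13 (0.62 ± 0.16, adjusted p = 0.0109) and Sidt2 (0.60 ± 0.16, adjusted p = 0.0125) were also higher in females.

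Il18 was lower in lacrimal glands of females, by -0.67 ± 0.18 (limma, adjusted p = 0.0161), and so was Dnaja4 with 1434196_at (-0.59 ± 0.14, adjusted p = 0.00849). The other Dnaja4 probe sets did not pass, at -0.12 ± 0.14 with 1418591_at (adjusted p = 0.619) and 0.03 ± 0.29 with 1418592_at (adjusted p = 0.949). In each genotype every female pool lay below every male pool for Il18 and for 1434196_at. Without knockout male pool 1, the Il18 difference was -0.58 and no longer passed. On CodeLink arrays, where 14.4% of spots passed, Il18 gave -1.01 ± 0.14 (adjusted p = 0.000442) and Cryab 0.87 ± 0.25 (adjusted p = 0.0359). The CodeLink spots of Sidt2 did not pass, at 0.13 ± 0.13 (adjusted p = 0.576) and 0.11 ± 0.32 (adjusted p = 0.867).

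In meibomian glands none of the 13 tested Affymetrix probe sets passed for sex in limma, where 14.5% of all did, and 2 had an unadjusted p under 0.05. On CodeLink arrays, where 20.5% passed, Cryab was lower in females (-0.41 ± 0.11, limma, adjusted p = 0.017), and so was 1110032A03Rik (-0.78 ± 0.25, adjusted p = 0.0437). With Cryab, every female pool lay below every male pool of its genotype, the opposite of the lacrimal direction, and the difference between the glands was not tested. The Affymetrix probe sets of Cryab parted in meibomian glands, at 0.19 ± 0.09 with 1434369_a_at (adjusted p = 0.178) and -0.29 ± 0.09 with 1416455_a_at (limma, adjusted p = 0.0513). The -0.29 passed 5% with the higher pseudocount (-0.31), with quantile normalization (-0.32) and without any 1 of 3 pools (-0.34 to -0.33), namely knockout female 2, wild type female 3 and wild type male 1. For 1110032A03Rik the wild type pools overlapped, and its Affymetrix probe set gave 0.07 ± 0.08 (adjusted p = 0.632). The lacrimal Cryab call and the meibomian 1110032A03Rik call on CodeLink arrays were lost in 19 of 24 fits that left out 1 pool, with values of 0.69 to 0.94 and -0.84 to -0.67 in those 19. Both calls were also lost without the filter on dim probes, and that of 1110032A03Rik with the replicate number as a block (-0.78).

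Around the 10 genes, other chromosome 9 genes were also called. Within 100 protein-coding genes of Cyp19a1 on either side, and without the 10 genes, 9 of 109 tested probe sets (8.26%) were called in lacrimal females, against 2.80% on other chromosomes. In lacrimal males the shares were 2 of 109 (1.83%) and 1.01%, in meibomian females 2 of 114 (1.75%) and 0.397%, and in meibomian males 1 of 114 (0.877%) and 0.0169%. The meibomian male call and 1 of the 2 meibomian female calls were the same probe set, 1436956_at of Rnf214, described below. With 1 probe set per gene, 1 of 81 was called in meibomian females and 0 of 81 in meibomian males. With the 10 genes counted, 17 of 123 were called in lacrimal females and 7 of 126 in meibomian females, which includes the choice itself. These counts hang on single pools: in lacrimal females 9 were called without knockout female pool 3, and 11 without wild type female pool 1 or pool 2. In meibomian females 1 was called without knockout female pool 1 or pool 3, 2 without wild type female pool 3, 4 without wild type female pool 1 or wild type male pool 2, and 12 without knockout male pool 1.

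The only other gene within 100 genes that was called with 1 sign in at least 2 comparisons was Rnf214, a RING finger gene and the 78th toward the chromosome start. Probe set 1436956_at averaged -1.05 ± 0.26 in knockout and 0.90 ± 0.10 in wild type meibomian females (SD, n = 3 each). Males averaged -0.70 ± 0.50 in knockout and 0.98 ± 0.34 in wild type pools (SD, n = 3 each). The differences were -1.95 ± 0.24 and -1.68 ± 0.24, wider than for any of the 10 genes on Affymetrix arrays in that gland. In lacrimal glands it gave -0.62 ± 0.21 in females and -0.77 ± 0.21 in males and was not called, and its other probe sets lay nearer 0.

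**Figure D4:**
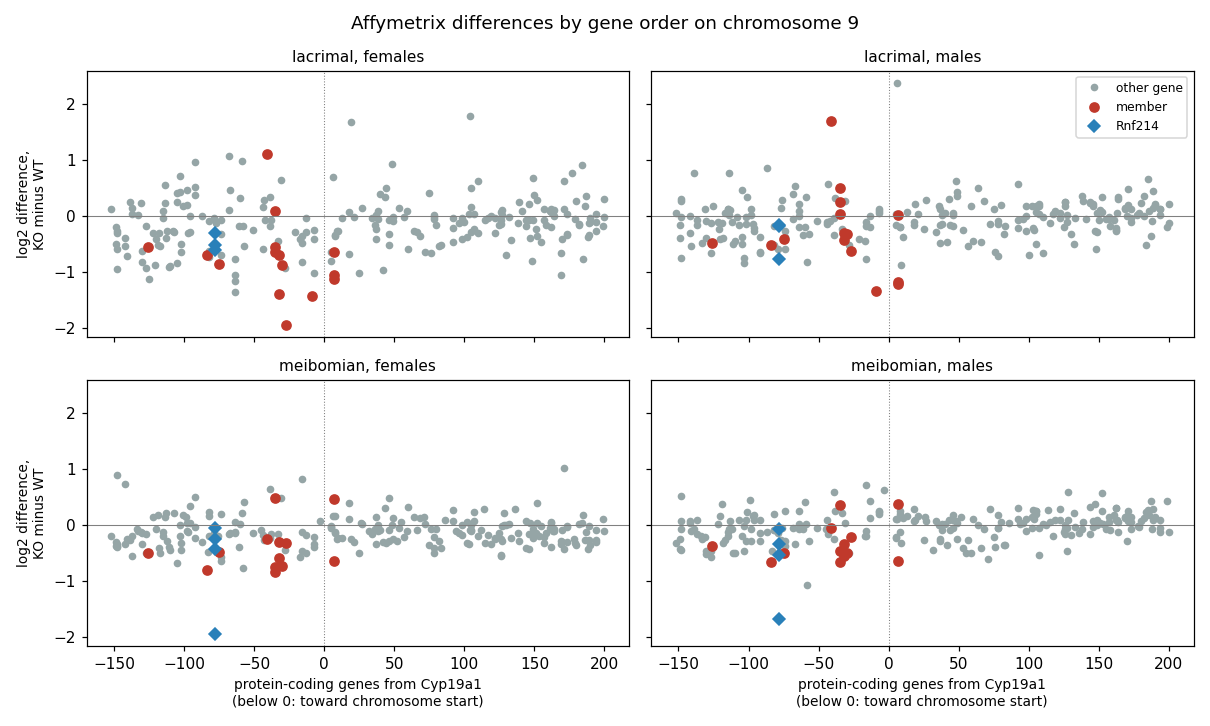
Affymetrix log2 difference, knockout minus wild type (vertical axis), of every tested probe set within 200 protein-coding genes of Cyp19a1 (horizontal axis, negative toward the chromosome start), for each gland and sex; the 10 genes are red, Rnf214 is a blue diamond and other genes are grey. The 10 genes lie mostly below 0 and within 126 genes of Cyp19a1, and the lowest Rnf214 probe set is the lowest point in both meibomian panels.

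By size rather than by call, a measure added after the values were seen, Affymetrix probe sets of genes that are not of the 10 were also compared. In genes 51 to 100 and in the next 100 genes, the side toward the chromosome start had more large differences. In lacrimal females 44.1% of 34 probe sets in genes 51 to 100 and 43.2% of 44 in the next 100 genes differed by at least 0.5, against 20.8% of 24 and 13.9% of 79 on the other side and 17.6% on other chromosomes. In lacrimal males the start side had 29.4% and 20.5%, the end side 20.8% and 7.59%, and other chromosomes 12.7%. Meibomian females had 14.3% of 35 and 12.8% of 39 on the start side, 3.85% of 26 and 3.80% of 79 on the end side and 5.33% on other chromosomes. In meibomian males these shares were 8.57% and 10.3%, 7.69% and 3.80%, and 4.59%. With 1 probe set per gene the meibomian male shares were 9.09% and 3.57% on the start side, 9.09% and 3.70% on the end side and 3.76% elsewhere, so that the sides did not part. The next 100 genes on the start side had 13.3% in lacrimal males by that measure, against 12.3% elsewhere. On CodeLink arrays the order of the sides in males varied by bin. Lacrimal males had 11.8% on the start side and 15.8% on the end side in genes 51 to 100, and 13.8% and 7.50% in the next 100 genes. Meibomian males had 6.25% and 0% in genes 51 to 100, and 0% and 2.38% in the next 100 genes. The 4 bins within 50 genes held 9 to 19 probe sets each and are too thin to rank, and the order of the sides varied among them. In genes 1 to 25, lacrimal females had 20.0% of 10 on the start side and 46.2% of 13 on the end side. Lacrimal males also had the larger share on the end side there. In genes 26 to 50 of lacrimal glands, and in both of these ranges of meibomian glands, the start side had the larger share in each sex. The difference between the sides was not tested.

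**Figure D5:**
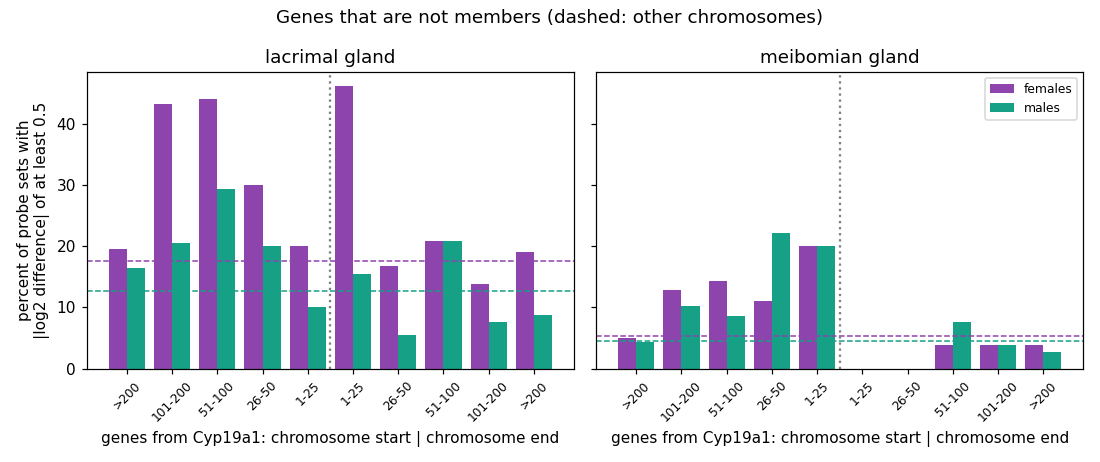
Percent of Affymetrix probe sets, without the 10 genes, that differed by at least 0.5 log2 units between knockout and wild type (vertical axis) by gene order from Cyp19a1 (horizontal axis, chromosome start left of the dotted line and chromosome end right), females in purple and males in green, with the share on other chromosomes dashed. Bins from 51 to 200 genes toward the chromosome start lie above the dashed line of their sex in both glands when every Affymetrix probe set is counted. With 1 probe set per gene the farther meibomian male bin is at 3.57%, below 3.76% elsewhere, and on CodeLink arrays it is at 0%.

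Over the 24 Affymetrix arrays, after subtracting the mean of each gland, some of the genes had each other or other chromosome 9 genes as their closest match. 1110032A03Rik and Tmprss13 were closest to each other (Pearson r = 0.845), Atm was closest to 1110032A03Rik (r = 0.778) and Ppp2r1b to Cadm1, the 64th gene from Cyp19a1 on chromosome 9 (r = 0.869). Their second matches, on other chromosomes, were near these values. They were Phlda1 on chromosome 10 for Atm (r = 0.776) and Hes6 on chromosome 1 for 1110032A03Rik (r = 0.822). For Tmprss13 it was Idh2 on chromosome 7 (r = 0.828), and for Ppp2r1b Trim41 on chromosome 11 (r = 0.844). Cryab was closest to Snap91, the 276th gene on chromosome 9 (r = 0.955), and then to Jak1 on chromosome 4 (r = 0.948). Il18 was closest to Gpr137b on chromosome 13 (r = 0.850), Sidt2 to Atad3a on chromosome 4 (r = 0.906), Dlat to Ccnd1 on chromosome 7 (r = 0.836), Dnaja4 to Uap1 on chromosome 1 (r = 0.787) and Mcam to Mtap on chromosome 4 (r = 0.758). The arrays fall into the same groups for every gene, and the genes were chosen for knockout differences on these same arrays, so these are descriptions.

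Marker genes of the labelled glands were present, and the sums of several marker lists differed between genotypes. Summed lacrimal acinar markers were 7.24 to 8.03 in lacrimal pools, and summed meibocyte markers 8.27 to 9.0 in meibomian pools, which also held skeletal muscle markers at 8.50 to 9.11. Salivary gland markers in lacrimal pools ranged widely, from 1.45 to 9.95 in knockout and 6.73 to 9.73 in wild type females and from 1.35 to 8.18 in knockout and 6.38 to 7.36 in wild type males. Summed meibocyte markers in lacrimal pools of females were 6.25 to 6.64 in knockout and 5.22 to 5.49 in wild type. Most of that sum was 1 gene, Scd1, and 3 of the 6 measured genes of the list passed the filter there. It is therefore not read as a difference in meibocytes. Endothelial and mural markers in the same pools were 4.77 to 4.87 in knockout and 5.42 to 5.65 in wild type. Macrophage and dendritic cell markers in lacrimal pools of males were 6.07 to 6.30 in knockout and 5.25 to 5.66 in wild type. Summed lacrimal acinar markers in meibomian pools were 2.63 to 3.18 in knockout and 3.51 to 3.59 in wild type females, and 3.11 to 3.42 in knockout and 3.48 to 3.77 in wild type males. The part of any of these in the knockout differences of the 10 genes was not tested. Leaving out any 1 pool moved 2 of 672 knockout differences of the Affymetrix probe sets by more than the spread between pools, and none past 5% changed sign. This low count says little about robustness. Leaving out a pool of 1 sex cannot change the difference of the other sex, and leaving out 1 of 3 pools seldom moves a mean that far.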

How the data were processed

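The Affymetrix values are probe set intensity values as deposited by the authors, and the submitters' processing notes name GCOS, the Affymetrix software, with no version or settings given in the sources used here. The CodeLink values are deposited spot intensity values, the spot mean less the median of its local background, divided by 1 factor per array, per the file headers. The CodeLink quality flags, of no unit other than a letter code, are as deposited. CodeLink labels give other RNA extractions for the 2 glands, so levels were not compared between glands.

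Values were floored at 0, and a pseudocount equal to the 20th percentile of an array type's positive values (4.4 for Affymetrix and 0.3054 for CodeLink) was added before taking log2. The median of each array was then subtracted. Differences of low signals are understated on this scale. The brightest 60% of probes of each gland (13614 Affymetrix, 10464 CodeLink) were fitted with limma 3.58.1 in R 4.3.3 (4 group means, eBayes with an intensity trend), with Benjamini-Hochberg adjustment at 5%. The fit was tested on simulated data. Members outside the filter take their values from a fit of every probe.

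Affymetrix symbols came from platform annotation, and of 22690 probe sets 20393 name 1 gene, 691 several and 1606 none. Of 17440 CodeLink spots, 11377 name 1 gene and 6063 none. RefSeq matched 20364 and 11377 of these by gene ID. Gene order counts 1201 protein-coding genes of chromosome 9. The members, lists and naming rule (all members, neighbours called with 1 sign in at least 2 of 4 comparisons within 100 genes, called list genes, and the most alike genes) were chosen with earlier results of these data known. Alternatives were quantile normalization, a higher pseudocount, no filter, the replicate number as a block, each pool left out, CodeLink in place of Affymetrix and 1 probe set per gene. The number of pools limits the precision, and p-values measure the spread between pools of mice.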

Additional observations from a re-analysis of the deposited data

Results flagged for a closer look

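The lacrimal difference of Ppp2r1b between knockout and wild type was -1.95 ± 0.21 (SE) in females and -0.63 ± 0.21 in males, and the female minus male difference of -1.32 passed 5% among all Affymetrix probe sets. As the gene was chosen on these comparisons, this is given as a description. The value ranged from -1.49 to -1.16 over the single pools left out, and the call was lost in 8 of these 12 fits and with no filter.

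The Il18 probe set was higher in knockout females in lacrimal glands (1.11 ± 0.26) and lower in meibomian glands (-0.24 ± 0.12), with no overlap of the pools in either gland. The difference between the glands was not tested, and the CodeLink spot gave 0.76 ± 0.19 in lacrimal and 0.19 ± 0.15 in meibomian females.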

How the results depend on the processing

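Counts of Affymetrix calls depended on single pools. With 1 pool left out they ranged from 181 to 834 in lacrimal females (412 with all pools), 62 to 197 in lacrimal males (145), 6 to 221 in meibomian females (72) and 0 to 38 in meibomian males (3), and from 109 to 372 (141) and 0 to 1 (0) for the difference of effects between sexes in lacrimal and meibomian glands. For sex they ranged from 1662 to 2872 (2369) in lacrimal and 1155 to 1966 (1973) in meibomian glands. CodeLink counts ranged from 100 to 306 (234), 41 to 95 (93), 1 to 11 (9) and 1 to 3 (2) for lacrimal females, lacrimal males, meibomian females and meibomian males. Calls within 100 genes of Cyp19a1 ranged from 9 to 22 (17), 5 to 6 (6), 1 to 12 (7) and 0 to 2 (1) in the same order. With the 40th percentile as pseudocount, 936 probe sets were called in lacrimal females, 234 for the lacrimal difference of effects and 1 for the meibomian one. Quantile normalization gave 39 in meibomian females, and 1 probe set per gene left 0 calls near Cyp19a1 in meibomian males. The causes were not tested. The split of higher and lower calls moved as well: in lacrimal females it was 150 higher and 262 lower in the main setting, 304 and 196 with quantile normalization and 154 and 782 with the higher pseudocount. Lacrimal males had 96 and 49, against 106 and 75 with quantile normalization, meibomian females 40 and 32, against 27 and 12 and, with the higher pseudocount, 42 and 20. The lacrimal difference of effects had 65 and 76, against 112 and 75 with quantile normalization and 63 and 171 with the higher pseudocount. The sex difference had 1630 and 739 in lacrimal glands, against 1277 and 1218, and on CodeLink arrays lacrimal females had 141 and 93, against 163 and 83, and lacrimal males 70 and 23, against 70 and 39. On Affymetrix arrays the correlations of deviations between same-numbered pools were -0.07 to 0.19 in lacrimal glands (mean 0.05, against -0.03 for other pairs). In meibomian glands they were -0.23 to 0.27 (mean 0.06, against -0.03 for other pairs). On CodeLink arrays these were -0.37 to 0.60 in lacrimal (mean 0.16, against -0.08 for other pairs) and -0.25 to 0.22 in meibomian glands. With the replicate number as a block 443, 155, 136 and 4 probe sets were called in the 4 comparisons. For single probes of the 10 genes, the CodeLink spot of 1110032A03Rik (0.76 in lacrimal females) was opposite to its Affymetrix probe set, and this rests on 1 array. Some Affymetrix differences moved by more than the spread between pools. With the higher pseudocount, lacrimal Atm went from -1.43 to -1.05 in females and from -1.34 to -0.96 in males, and Ppp2r1b from -1.95 to -1.71 in females. Quantile normalization gave -0.60 for 1110032A03Rik, -0.19 for Ppp2r1b and 0.60 for Dlat 1452005_at in meibomian females. Of 60 CodeLink values set against Affymetrix differences of the same gene, 40 lay further off than the spread between pools and 19 did not.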

Other observations

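Among marker genes, Scd1, a fatty acid desaturase on the meibocyte list, was at 6.32 in knockout and 5.08 in wild type female lacrimal glands, a rise of 1.24 ± 0.22 (limma, adjusted p = 0.00236). The higher meibocyte sum of these glands, given above, was mostly this gene and is not a separate observation. Prol1, 1 of the 3 measured genes of the lacrimal acinar list, was at 2.46 in knockout and -1.29 in wild type female lacrimal glands (log2 relative to the array median, limma, adjusted p = 0.000557). The wild type value was at the dim end of the arrays, so the summed acinar level of wild type females did not rest on Prol1. In meibomian females Aqp5, a water channel, fell by 0.75 on the log2 scale (SE 0.15, adjusted p = 0.0389, limma).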
